A study of Mus musculus with 10 samples.

Results

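Ribosome assembly genes and Myc, the transcription factor that drives many of them, were followed in invariant natural killer T (iNKT) cells of the mouse thymus with and without Id3. The 35 genes were taken from a given list of Myc, 31 factors of ribosome production, a pyrimidine synthesis enzyme and a pair of polyamine enzymes, and all 35 had a probe set among the 18193 genes on the array. One probe set stood for each gene, the one with the highest mean log2 intensity over the 10 arrays. iNKT cells are T cells whose nearly fixed receptor recognises lipids on CD1d, and Id3 is an inhibitor of the E protein transcription factors. The cells came from thymi of 6-week-old C57BL/6 mice of genotype WT or Id3KO. They bound the tetramer (Tet+), lacked CD24 and NK1.1, and were divided into stage 1 (without CD44) and stage 2 (with CD44). There were 2 WT and 2 Id3KO arrays at stage 1 and 3 of each at stage 2, each labelled as a biological replicate. The labels do not describe how the Id3 allele was made.

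Ribosomes are built in the nucleolus. RNA polymerase I transcribes the precursor of the ribosomal RNAs there, small nucleolar ribonucleoproteins (snoRNPs) guide its chemical modification, and separate sets of assembly factors cut and fold it into the small and the large subunit. Myc binds DNA with its partner Max, often at the sequence CACGTG, and genes of ribosome assembly, nucleotide synthesis and polyamine synthesis are among its best known targets. In T cells this program is known to rise with growth and division.

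The targeted gene followed the labels. Id3 intensity was 1289 and 1282 on the WT stage 1 arrays and 818 to 1065 on the WT stage 2 arrays, against 54.2 to 69.8 on the 5 Id3KO arrays (log2 fold change -4.32 ± 0.16, SE, at stage 1 and -3.83 ± 0.13 at stage 2, limma adjusted p = 1.83e-05 and 9.02e-06). Median array intensity lay between 54.8 and 55.5. Of the 8 T cell and sort markers with a probe set, 7 were above the level for testing (the median of the whole table, an intensity of 55.1) on every array of each group, and Cd24a was not. Cd44 mean intensity (geometric, over arrays) was 182 at stage 1 in both genotypes, and 764 in WT and 434 in Id3KO cells at stage 2. The Id3KO stage 2 arrays were uneven, at 577, 280 and 507 for replicates 1 to 3. Replicate 2 lay near the 255 of replicate 2 of Id3KO stage 1. Of the double-positive thymocyte markers 1 of 7 was above the level on every array of each group, with Rag1, Rag2, Ptcra and Dntt below it on all 10 arrays and a summed intensity of 339 to 366 in WT and 339 to 367 in Id3KO cells. Of the B cell markers 1 or 2 of 6 were above it, with a summed intensity of 468 to 804 in WT and 396 to 757 in Id3KO cells, and of the myeloid and dendritic markers 3 or 4 of 9 (863 to 1090 over all arrays). Of the NK cell markers 0 of 3 were above it in WT and 1 of 3 in Id3KO cells, with a summed intensity of 133 to 163 in WT and 132 to 241 in Id3KO cells. These 3 did not move one way. Eomes rose without Id3 averaged over the stages (log2 0.97 ± 0.19, SE, limma adjusted p = 0.0196), Klrb1b fell at stage 2 (-0.61 ± 0.14, SE, limma adjusted p = 0.0454), and Ncr1, at 40.5 to 50.3, was below the level on all 10 arrays and not tested. Of the T cell and sort markers, Cd247, a chain of the T cell receptor complex, fell in the average over stages (-0.54 ± 0.079, SE, limma adjusted p = 0.00569). No other gene of the marker lists was called in the 6 comparisons. The part of these markers and of Cd44 in the differences below was not tested. In sorted populations measured as bulk RNA, fewer cells of a type and less RNA per cell cannot be told apart.

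All 35 genes were above the level for testing on all 10 arrays, with intensities from 119 to 4574. The most even gene over the 10 arrays was Odc1, with a range of 0.23 on the log2 scale, and the most variable were Wdr12 (1.19), Myc (0.99), Srm (0.87) and Gnl3 (0.86). The highest of the 10 arrays was an Id3KO array for 29 of the 35 genes. It was a stage 2 array (3 of the 10) for 19 genes and a stage 1 array (2 of the 10) for 10. The lowest was a WT stage 2 array (3 of the 10) for 27. The shares of all probe sets with these extremes were not counted. The mean log2 intensity over the 35 genes was 8.97 and 8.997 on the WT stage 1 arrays, 8.82 to 8.91 on the WT stage 2 arrays, 9.05 and 9.12 on the Id3KO stage 1 arrays and 9.05 to 9.12 on the Id3KO stage 2 arrays. These means did not overlap between the genotypes.

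**Figure D1:**
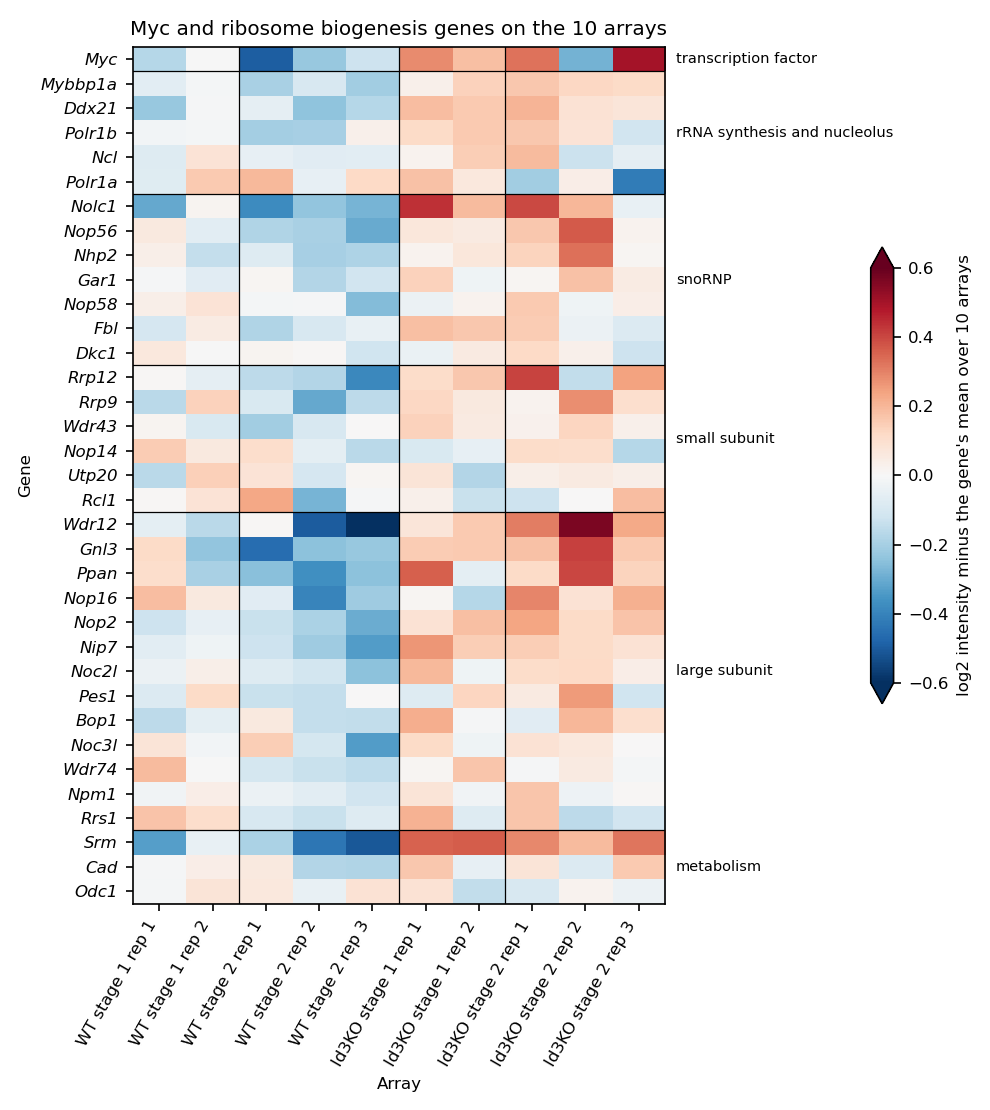
Heat map of the 35 genes (vertical axis, grouped by role) on the 10 arrays (horizontal axis); colour is the log2 intensity minus that gene's mean over the 10 arrays, and the scale ends at 0.6 in either direction. Most genes are blue on the WT stage 2 arrays and red on the Id3KO arrays. The lowest value of 27 genes lies in WT stage 2 (3 of the 10 arrays), and the share of all probe sets was not counted.

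At stage 2, several ribosome assembly genes were higher without Id3. Of the 35 genes, 6 (17.1%) rose and 0 fell (limma, Benjamini-Hochberg adjusted p under 0.05 over 25061 probe sets, n = 3 against 3), where 1.82% of all tested probe sets were called higher and 2.39% lower (4.21% in all). They were Wdr12, Srm, Gnl3, Nop2, Nip7 and Mybbp1a. Their differences were modest, between 1.23-fold and 1.67-fold. The estimate was above 0 for 33 of 35 genes, against 51.6% of all tested probe sets, with a median of 0.17 on the log2 scale against 0.0059. The Id3KO arrays lay entirely above the WT arrays for 19 genes (54.3%; 10.9% of all probe sets) and entirely below for 0. The 35 genes were chosen with earlier results of these data known, so these shares are not an independent test.

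The 6 calls were made by a narrow margin, with adjusted p between 0.0123 and 0.0448. None of the 6 passed without replicate 2 or without replicate 3 of WT stage 2, and 1 passed without replicate 1 of Id3KO stage 2 or when only the 6 stage 2 arrays were fitted. The count was 2 without replicate 3 of Id3KO stage 2 or either Id3KO stage 1 array, and 3 without either WT stage 1 array. The median over the 35 genes stayed between 0.16 and 0.25 in every alternative.

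**Figure D2:**
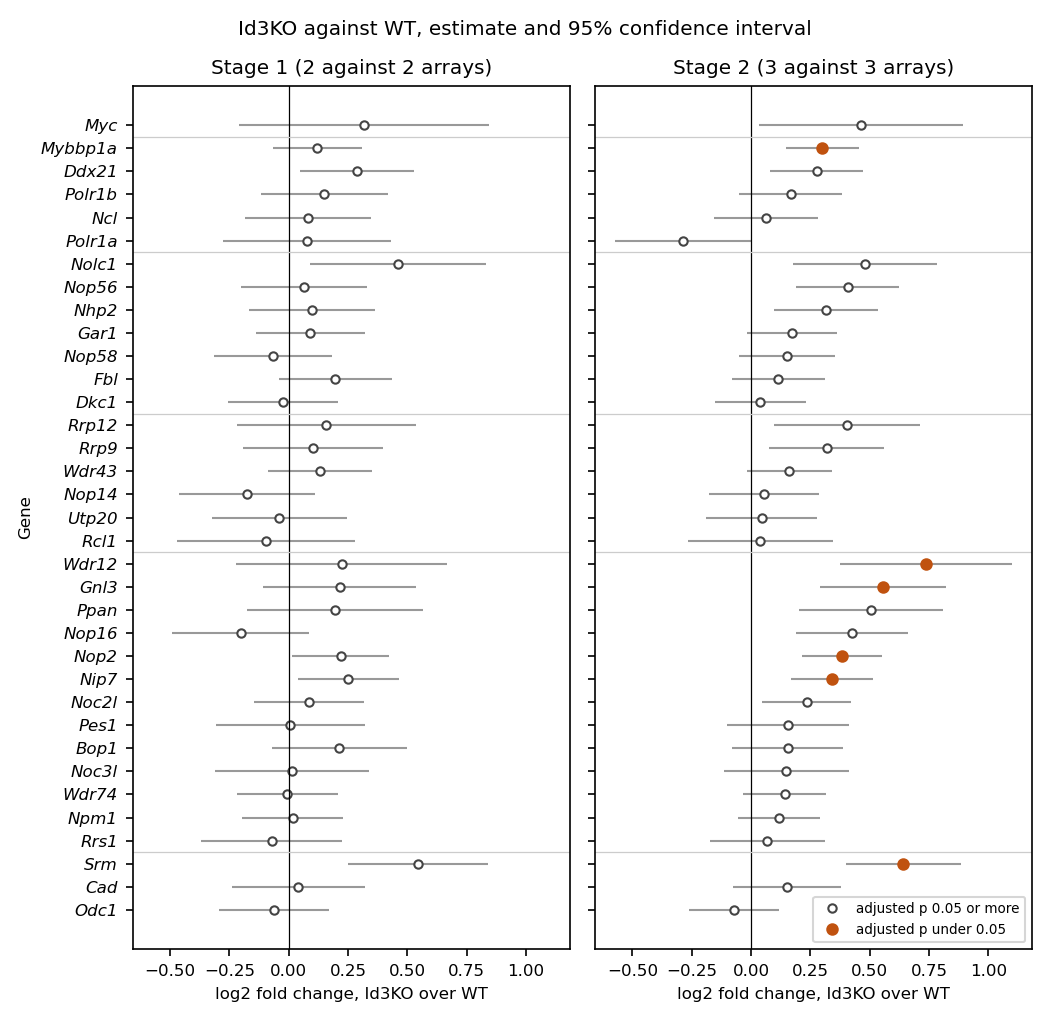
Log2 fold change of Id3KO over WT (horizontal axis) with its 95% confidence interval for each gene (vertical axis, grouped by role) at stage 1 and stage 2; filled points passed an adjusted p under 0.05. At stage 1 no point is filled, and at stage 2 the 6 filled points lie between 0.30 and 0.74.

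Promoter windows of genes that rose are shown so that the letters bound by Myc and by the E proteins, which Id3 inhibits, can be seen in place. RefSeq windows (GRCm38.p6) of 300 bases, 250 before to 50 after the annotated start, were given for 28 of the 35 genes and not for Myc, Bop1, Fbl, Npm1, Rrp12, Rrs1 and Srm. Printed are the windows of Nop2, Nip7, Gnl3, Wdr12 and Nolc1, which rank next to Srm by p-value in the genotype comparisons, and, chosen after the motifs were seen, those of Mybbp1a, which was called, and Pes1, which was not. Wdr12 has 3 annotated starts and the most upstream is shown. Capitals mark CACGTG, which Myc and Max prefer. They also mark CAGCTG, which E proteins bind, and a further E protein sequence, CAGGTG, which reads as CACCTG from the opposite side.
Nop2: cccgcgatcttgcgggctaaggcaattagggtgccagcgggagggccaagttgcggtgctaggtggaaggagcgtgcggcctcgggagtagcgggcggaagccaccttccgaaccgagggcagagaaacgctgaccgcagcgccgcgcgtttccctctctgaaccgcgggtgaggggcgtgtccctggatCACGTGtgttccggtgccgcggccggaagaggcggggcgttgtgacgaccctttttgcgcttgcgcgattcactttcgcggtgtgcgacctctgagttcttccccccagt
Mybbp1a: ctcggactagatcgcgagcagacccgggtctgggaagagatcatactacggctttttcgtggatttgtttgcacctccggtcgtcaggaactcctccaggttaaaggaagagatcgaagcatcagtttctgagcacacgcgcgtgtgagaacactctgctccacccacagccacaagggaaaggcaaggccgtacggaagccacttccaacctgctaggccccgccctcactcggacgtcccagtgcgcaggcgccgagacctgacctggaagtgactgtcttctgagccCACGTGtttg
Pes1: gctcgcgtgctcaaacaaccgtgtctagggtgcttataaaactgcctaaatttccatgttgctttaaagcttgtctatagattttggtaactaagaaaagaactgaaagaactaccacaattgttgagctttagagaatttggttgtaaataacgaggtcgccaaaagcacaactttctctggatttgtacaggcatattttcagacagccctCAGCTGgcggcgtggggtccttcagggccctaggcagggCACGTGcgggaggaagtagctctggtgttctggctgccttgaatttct
Nip7: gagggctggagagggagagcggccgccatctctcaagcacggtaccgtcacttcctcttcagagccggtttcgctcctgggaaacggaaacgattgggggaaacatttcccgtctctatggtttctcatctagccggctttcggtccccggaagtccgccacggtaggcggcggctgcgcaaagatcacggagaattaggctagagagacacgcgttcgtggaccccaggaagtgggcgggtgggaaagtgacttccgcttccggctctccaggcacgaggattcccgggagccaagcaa
Gnl3: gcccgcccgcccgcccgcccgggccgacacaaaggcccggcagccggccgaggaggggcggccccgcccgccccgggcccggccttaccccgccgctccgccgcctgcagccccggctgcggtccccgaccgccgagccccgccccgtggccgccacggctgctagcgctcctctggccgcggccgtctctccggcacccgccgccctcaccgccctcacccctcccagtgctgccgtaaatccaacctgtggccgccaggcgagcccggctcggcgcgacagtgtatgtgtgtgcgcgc
Wdr12: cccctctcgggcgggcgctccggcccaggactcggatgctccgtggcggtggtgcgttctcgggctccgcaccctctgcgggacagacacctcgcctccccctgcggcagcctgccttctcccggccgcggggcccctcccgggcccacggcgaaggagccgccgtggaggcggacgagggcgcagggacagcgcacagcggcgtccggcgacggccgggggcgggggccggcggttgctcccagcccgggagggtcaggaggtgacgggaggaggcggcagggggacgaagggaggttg
Nolc1: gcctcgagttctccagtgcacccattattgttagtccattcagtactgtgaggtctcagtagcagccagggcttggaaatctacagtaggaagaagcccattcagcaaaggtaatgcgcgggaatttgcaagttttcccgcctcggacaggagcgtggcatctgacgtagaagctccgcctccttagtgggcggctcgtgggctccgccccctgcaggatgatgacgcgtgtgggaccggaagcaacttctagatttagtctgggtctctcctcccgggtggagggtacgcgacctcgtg
The windows lie at chr6:125131633-125131932 (plus strand) for Nop2, chr11:72441077-72441376 (plus strand) for Mybbp1a, chr11:3963725-3964024 (plus strand) for Pes1, chr8:107056627-107056926 (plus strand) for Nip7, chr14:31019082-31019381 (minus strand) for Gnl3, chr1:60098451-60098750 (minus strand) for Wdr12 and chr19:46075597-46075896 (plus strand) for Nolc1, each written 5′ to 3′ on the strand of its gene.

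CACGTG was found, on either strand, in the windows of 5 of the 28 genes (17.9%), against 8.09% of all 27025 genes with a window and 24.1% of 79 further assembly factors. The 5 were Nop2, Mybbp1a, Pes1, Wdr43 and Utp20. In Nop2 the motif begins 60 bases before the start, in Mybbp1a 40 bases after it and in Pes1 2 bases after it. Of the 5, Nop2 and Mybbp1a rose at stage 2, and the brightest probe sets of Pes1, Wdr43 and Utp20 were not called. Of the other genes called in a genotype comparison, Nip7, Gnl3, Wdr12 and Nolc1 had none of the motifs in any of their windows. CAGCTG was found for 6 of 28 genes (21.4%), against 18.3% of all genes and 2.53% of the further assembly factors. Those 6 were Gar1, Nop14, Rrp9, Ddx21, Pes1 and Noc3l, none of which was called. CAGGTG, on either strand, was found for 0 of 28, against 22.6% of all genes and 7.59% of the further assembly factors. The windows of the 28 genes had a median GC content of 59.7% against 52.7% over all windows, and the part of base composition in these shares was not tested. A match describes letters in a window, not binding.

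Factors of the large subunit, the largest role with 13 of the 35 genes, held 4 of the 6 calls at stage 2. Of all tested probe sets, 1.82% were called higher. The other 9 factors were not called, and the estimate was above 0 for all 13 (51.6% of all tested probe sets). Wdr12 and its partners Pes1 and Bop1 form a complex that processes the large subunit RNA. Wdr12 intensity was 256, 180.4 and 166 on the WT stage 2 arrays and 316, 377 and 299 on the Id3KO stage 2 arrays. All 3 Id3KO arrays exceeded the WT arrays, of which replicate 1 stood well above the other two. Wdr12 rose 1.67-fold (log2 0.74 ± 0.16, SE, limma adjusted p = 0.0385). A dimmer kept probe set of Wdr12 stood at 0.23 (adjusted p = 0.51), and with all kept probe sets averaged the log2 fold change was 0.49. Pes1 (0.15) and Bop1 (0.15), which make up the rest of that complex, were not called.

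Gnl3 encodes nucleostemin, a nucleolar GTPase. Its intensity was 383, 443 and 449 on the WT and 594, 697 and 585 on the Id3KO stage 2 arrays, without overlap (1.47-fold, log2 0.56 ± 0.12, SE, limma adjusted p = 0.034). Nop2, a methyltransferase of the large subunit RNA, had intensities of 265, 255 and 237 in WT and 344, 316 and 329 in Id3KO cells. Its arrays were tight within each group and did not overlap (1.3-fold, log2 0.38 ± 0.074, SE, limma adjusted p = 0.0246). Nip7, a factor needed for processing of the ribosomal RNA precursor, had intensities of 452, 424 and 391 in WT and 545, 534 and 524 in Id3KO cells, again without overlap (1.27-fold, log2 0.34 ± 0.076, SE, limma adjusted p = 0.0432). The dimmer probe set of Nip7 went the other way, at -0.21 ± 0.19 (SE, adjusted p = 0.692), and the mean of both stood at 0.067 (adjusted p = 0.822).

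Of the large subunit factors that were not called, Ppan had the largest difference at stage 2 (0.51 ± 0.13, SE, limma adjusted p = 0.0772), with 534, 493 and 536 in WT and 689, 839 and 697 in Id3KO cells. Nop16, a nucleolar protein of large subunit assembly, stood at 0.42 ± 0.10 (SE, limma adjusted p = 0.0606), and Noc2l at 0.23 (adjusted p = 0.18). These 3 genes did not overlap between the genotypes either, where 10.9% of all probe sets lay entirely higher in Id3KO cells. Noc3l (0.15), the partner of Noc2l in carrying pre-ribosomes out of the nucleolus, Wdr74 (0.14), Npm1 (0.12), the abundant nucleolar chaperone nucleophosmin, and Rrs1 (0.068) lay closer to 0.

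Srm, spermidine synthase, had the smallest p-value of the 35 genes in the genotype comparisons. Its intensity was 949, 803 and 761 on the WT stage 2 arrays and 1322, 1235 and 1352 on the Id3KO stage 2 arrays. At stage 1 it was 862 and 1049 in WT and 1383 and 1392 in Id3KO cells. Every one of the 5 Id3KO arrays exceeded every one of the 5 WT arrays. Srm rose 1.56-fold at stage 2 (log2 0.64 ± 0.11, SE, limma adjusted p = 0.0123) and stood at 0.55 ± 0.13 at stage 1 (SE, adjusted p = 0.129), which did not pass. At stage 2 it passed in 19 of 21 alternatives, the exceptions being those without replicate 2 or 3 of WT stage 2 (adjusted p up to 0.0546). Odc1, ornithine decarboxylase, catalyses the step of polyamine synthesis before Srm and is a classical Myc target. Its intensity was 1006, 933 and 1020.1 in WT and 901, 978 and 938 in Id3KO stage 2 cells, which overlapped (log2 -0.071 ± 0.083, SE, limma adjusted p = 0.768, 95% confidence interval -0.26 to 0.12). Cad, the enzyme that starts pyrimidine synthesis, stood at 0.15 ± 0.10 (SE, limma adjusted p = 0.532). Srm lies on the same chromosome as Id3, with 184 protein-coding genes between them in the RefSeq gene order, as does Noc2l with 310 between.

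Among the snoRNP genes, 0 of 7 were called at stage 2, where 1.82% of all tested probe sets were called higher. All 7 estimates were above 0 (51.6% of all tested probe sets). For 4 genes the Id3KO arrays lay entirely above the WT arrays (10.9% of all probe sets). Nolc1, the chaperone that brings snoRNPs into the nucleolus, had intensities of 643, 709 and 689 in WT and 1099, 959.8 and 809 in Id3KO stage 2 cells (log2 0.48 ± 0.13, SE, limma adjusted p = 0.0914), without overlap. Fbl, the RNA methyltransferase fibrillarin, and its partners Nop56 and Nop58 form the core of the box C/D particles. Nop56 intensity was 899.5, 890.4 and 826 in WT and 1137, 1313 and 1034 in Id3KO cells (log2 0.41 ± 0.10, SE, limma adjusted p = 0.0518), while Nop58 (0.15) and Fbl (0.12) differed less. The dimmer probe set of Nop56 was called, at 0.63 ± 0.12 (SE, limma adjusted p = 0.0206). Of the box H/ACA core, Nhp2 stood at 0.32 (adjusted p = 0.121), Gar1 at 0.17, and Dkc1, the pseudouridine synthase dyskerin, at 0.04.

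For ribosomal RNA synthesis and the nucleolus, 1 of 5 genes rose at stage 2, where 1.82% of all tested probe sets were called higher. Mybbp1a, a nucleolar Myb-binding protein that takes part in processing of the precursor, had intensities of 661, 707 and 654 in WT and 846, 824 and 818 in Id3KO cells, a small difference between tight groups (1.23-fold, log2 0.30 ± 0.068, SE, limma adjusted p = 0.0448). The call was lost with any 1 of the 10 arrays left out (adjusted p up to 0.156 over the alternatives). Its dimmer probe set stood at 0.32 (adjusted p = 0.143). The helicase gene Ddx21 stood at 0.28 (adjusted p = 0.131), and its dimmer probe set at -0.0003 (adjusted p = 0.999). Polr1b, a core subunit of RNA polymerase I, stood at 0.17, and Ncl, nucleolin, at 0.064. Polr1a, the largest subunit of RNA polymerase I, was the gene furthest in the other direction, at -0.29 ± 0.13 (SE, limma adjusted p = 0.3), with 238, 201 and 226 in WT and 180.1, 214 and 155 in Id3KO cells. Of its 2 dimmer kept probe sets, 1 stood at 0.24 (adjusted p = 0.222) and the other at -0.015, so the direction depended on the probe set.

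Small subunit factors showed 0 of 6 calls at stage 2, where 1.82% of all tested probe sets were called higher. All 6 estimates were above 0 (51.6% of all tested probe sets). Rrp12 stood at 0.41 ± 0.14 (SE, limma adjusted p = 0.154) and Rrp9, which binds the U3 snoRNA, at 0.32 ± 0.11 (SE, limma adjusted p = 0.154). Wdr43, Nop14, Utp20 and Rcl1, which belong to or act in the processome that cuts the small subunit RNA, lay between 0.039 and 0.16. The dimmer probe set of Wdr43 was called at 0.64 ± 0.15 (SE, limma adjusted p = 0.0499). Over all 28 further kept probe sets of the 35 genes, 19 were above 0 at stage 2, 2 were called higher and 0 lower, with a median of 0.14.

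Myc itself was not called in any comparison. At stage 1 its intensity was 281 and 316 in WT and 385 and 358 in Id3KO cells, and at stage 2 225, 270.1 and 290.4 in WT and 396, 260.1 and 447 in Id3KO cells. The Id3KO arrays were above the WT arrays at stage 1. At stage 2 they overlapped: replicate 2 of Id3KO, at 260.1, lay below 2 of the 3 WT arrays. The difference was 0.32 ± 0.23 at stage 1 (log2, SE, limma adjusted p = 0.724, 95% confidence interval -0.21 to 0.85) and 0.46 ± 0.19 at stage 2 (SE, limma adjusted p = 0.255, 95% confidence interval 0.032 to 0.89). With array weights the stage 2 difference was 0.43 and did not pass (limma adjusted p = 0.202). Without replicate 2 of Id3KO stage 2 it was 0.69 and passed (adjusted p = 0.0324). That array had the lowest Myc intensity of its group, so leaving it out had to raise the estimate, and the pass is not a separate result. On that same array 15 of the 35 genes, among them Wdr12, Gnl3, Ppan and Nop56, had their highest value of the group. On replicate 1, 16 genes had theirs, and the shares of all probe sets were not counted. Cd44 was also lowest of the group there (280 against 577 and 507). Of the B cell markers, Blk was highest there (502 against 152 and 156), while the others stayed at or below 61.5 on all 3 arrays. The part of these markers in the values of the 35 genes was not tested.

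**Figure D3:**
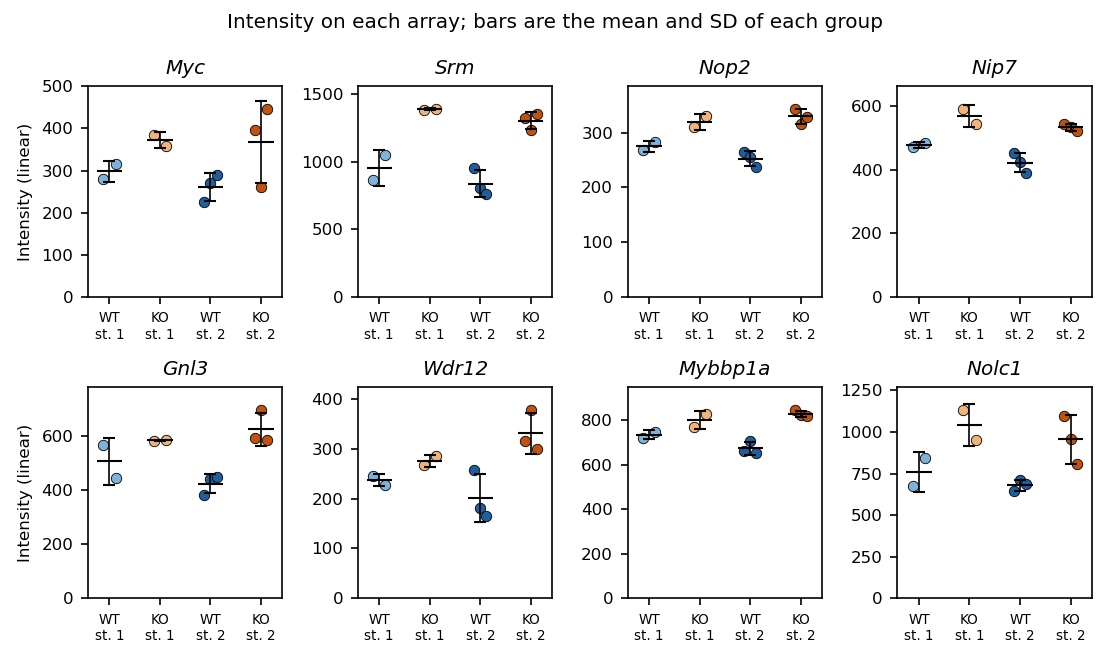
Intensity (linear, vertical axis from 0) of Myc and the 7 genes called in a genotype comparison, by group (WT and KO for Id3KO, st. for stage); points are arrays, and bars are the mean and SD. The 3 Id3KO stage 2 arrays of Srm lie between 1235 and 1352 against 761 to 949 in WT, while for Myc 1 Id3KO stage 2 array (260.1) lies among the WT arrays.

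At stage 1, limma called 0 of 35 genes in either direction, where 0.802% of all probe sets were called (n = 2 against 2). At an unadjusted p under 0.05 there were 5, all higher in Id3KO cells, namely Srm, Nolc1 (0.46 ± 0.16, SE), Nip7 (0.25), Ddx21 (0.29) and Nop2 (0.22). The share of all probe sets under that unadjusted p was not counted. The estimate was above 0 for 26 of 35 genes, with a median of 0.092 against -0.0075 over all tested probe sets. The further probe sets did not share this shift: of 28 kept, 13 were above 0, 15 below and 0 called, with a median of -0.029. Dimmer probe sets stood at -0.23 and 0.16 for Nolc1, at -0.078 for Nip7 and at -0.16 for Ddx21. WT and Id3KO arrays were fully apart for 17 genes, 14 with Id3KO higher (40.0%; 18.7% of all probe sets) and 3 with Id3KO lower (8.57%; 22.8%). Those 3 were singled out after their values were seen. They were Nop14 (-0.18), Nop16 (-0.20) and Nop58 (-0.066). Nolc1 intensity at stage 1 was 675 and 844 in WT and 1132 and 953 in Id3KO cells. Wdr12 at stage 1 was 245 and 228 in WT and 268 and 284 in Id3KO cells (log2 0.22 ± 0.20, SE, limma adjusted p = 0.784), and Gnl3 was 569 and 445 and 583 and 586 (log2 0.21 ± 0.14, SE, limma adjusted p = 0.689).

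Averaged over both stages, which uses all 10 arrays, 5 of 35 genes rose without Id3 (14.3%; 2.18% of all probe sets were called higher) and 0 fell (2.79% of all probe sets were called lower, and 4.97% in either direction). These were Srm (log2 0.59 ± 0.084, SE, limma adjusted p = 0.00475), Nolc1 (0.47 ± 0.11, SE, limma adjusted p = 0.0385), Gnl3 (0.39), Nop2 (0.30) and Nip7 (0.30). With all kept probe sets of a gene averaged, Nolc1 stood at 0.22 and still passed (limma adjusted p = 0.0498), and Nip7 stood at 0.077 and did not (adjusted p = 0.732). For 8 genes all 5 Id3KO arrays lay above all 5 WT arrays (22.9%; 3.1% of all probe sets), and for 0 the reverse (3.75%; 6.85% in either direction). The 8 were Srm, Nop2, Nip7, Gnl3, Wdr12, Mybbp1a, Ddx21 and Wdr43. Wdr12 (0.48, adjusted p = 0.0709), Ddx21 (0.28, 0.053) and Mybbp1a (0.21, 0.0625) just missed the threshold. Their dimmer kept probe sets stood at 0.36 for Wdr12, -0.081 for Ddx21 and 0.078 for Mybbp1a (limma adjusted p = 0.142, 0.678 and 0.731). Over all 28 further kept probe sets, 18 were above 0, 10 below and 0 called, with a median of 0.059. Srm passed in all 20 alternatives run for this average, with adjusted p up to 0.0231. The count fell to 1 without replicate 2 or 3 of WT stage 2 or replicate 1 of Id3KO stage 1, and to 2 without either WT stage 1 array, replicate 2 of Id3KO stage 1 or replicate 1 of Id3KO stage 2. The average shares its arrays with the comparisons at each stage and is not a further experiment.

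Between the stages, limma called 0 of 35 genes in WT cells, where 0.016% of all probe sets were called (0.012% higher and 0.00399% lower), and 0 in Id3KO cells, where 0% were. At an unadjusted p under 0.05, for which the share of all probe sets was not counted, there were 2 genes in WT and 1 in Id3KO. In WT they were Nop16 (log2 -0.35 ± 0.12, SE) and Wdr74 (-0.23 ± 0.086, SE), and in Id3KO Nop16 again (0.28 ± 0.12, SE). In WT cells the estimate was below 0 at stage 2 for 31 of 35 genes (52.3% of all probe sets), with a median of -0.13, and for 12 genes the stage 2 arrays lay entirely below the stage 1 arrays (34.3%; 14.4% of all probe sets). Large subunit factors, 13 of the 35 genes, made up 8 of those 12. The WT stage 2 arrays also serve the genotype comparison at stage 2, so the 2 comparisons are not independent. In Id3KO cells the estimates were spread around 0, 20 above and 15 below, with a median of 0.0073, and 2 genes lay entirely higher (5.71%; 9.45% of all probe sets) and 4 entirely lower (11.4%; 8.91%), where 18.4% of all probe sets did one or the other.

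**Figure D4:**
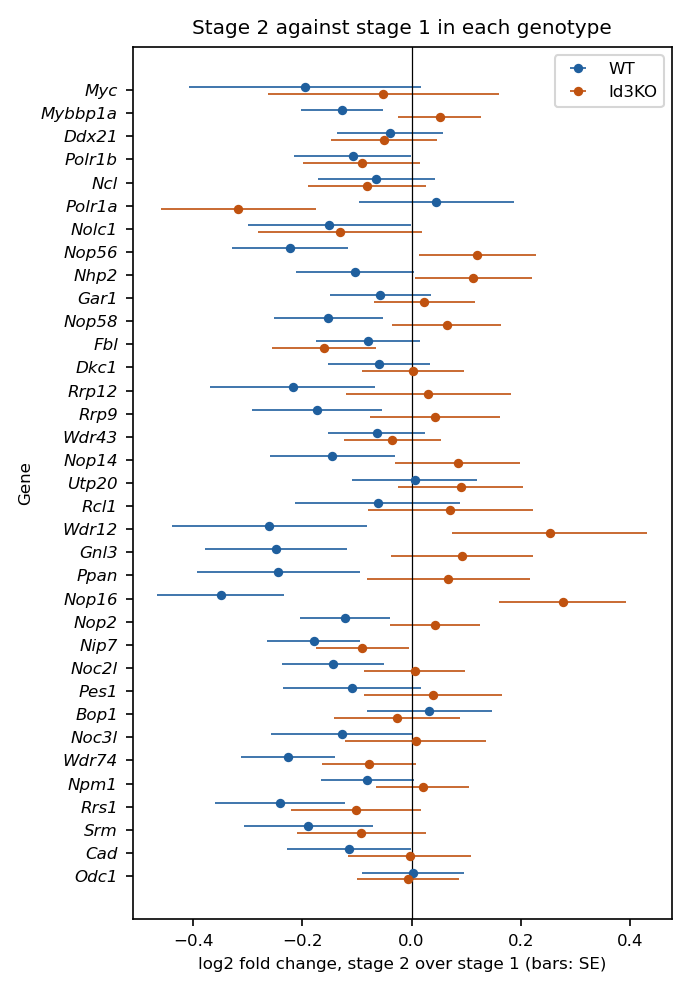
Log2 fold change of stage 2 over stage 1 (horizontal axis, bars are SE) for each gene (vertical axis) in WT and in Id3KO cells. In WT 31 of 35 points lie below 0, and in Id3KO 15 do; none passed the test.

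The interaction asks whether the genotype difference changed between stages. No gene passed (limma, 0 of 35, where 0% of all probe sets were called). An unadjusted p under 0.05, for which the share of all probe sets was not counted, was found for 1 gene. This was Nop16, at 0.63 ± 0.16 (log2, SE, limma adjusted p = 0.553). Its intensity was 179 and 164 in WT and 158 and 139.8 in Id3KO cells at stage 1, and 149.8, 119 and 135 and 192, 167 and 182 at stage 2. Id3KO arrays were thus the lower at stage 1 and the higher at stage 2, in both cases without overlap. Of all probe sets, 22.8% lay entirely lower at stage 1 and 10.9% entirely higher at stage 2, and the share doing both was not counted. For Wdr12 the interaction was 0.51 ± 0.25 (SE, limma adjusted p = 0.734), and for Srm 0.10 ± 0.17 (SE, limma adjusted p = 0.943).

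Other genes of the pathway were taken from textbook lists, chosen with earlier results of these data known. Of 89 further ribosome assembly factors, 3 rose and 0 fell at stage 2, where 1.82% of all tested probe sets were called higher and 2.39% lower. The estimate was above 0 for 73, with a median of 0.12. The 3 called genes were Wdr46 (0.68 ± 0.12, SE, limma adjusted p = 0.0183), Nmd3, the export adaptor of the large subunit (0.51), and Bms1, a GTPase of small subunit assembly (0.35). At stage 1, 0 of the 89 were called and 49 were above 0, with a median of 0.020. The means of the 89 per array overlapped between the genotypes, at 8.23 to 8.36 in WT and 8.31 to 8.43 in Id3KO cells (log2). Of 10 RNA polymerase I genes, 1 rose at stage 2, where 1.82% of all probe sets were called higher. It was Taf1d, a subunit of the polymerase's promoter selectivity factor (0.42 ± 0.095, SE, limma adjusted p = 0.0436). Of 41 ribosomal protein genes 0 were called at either stage, and their medians were 0.020 and 0.031. Their means per array moved little, from 12.09 to 12.13 in WT and 12.14 to 12.16 in Id3KO cells on the log2 scale.

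Among 15 tested genes of the Myc network, 1 fell at stage 2, where 2.39% of all probe sets were called lower. It was Fbxw7, the ubiquitin ligase subunit that marks Myc protein for degradation (-0.44 ± 0.084, SE, limma adjusted p = 0.0227), and the median was -0.029. Of 17 nucleotide synthesis genes, 0 were called at either stage, with medians of -0.090 at stage 1 and 0.12 at stage 2. Averaged over the stages, Prps2, which makes the ribose phosphate donor of nucleotides, fell by 0.75 ± 0.13 (SE, limma adjusted p = 0.0108). Of 8 further polyamine genes 0 were called at either stage, with a median of 0.078 at stage 2. Of the 14 S phase and 11 G2 and M phase genes 0 were called in any comparison, with medians of -0.055 and 0.10 at stage 2. The per-array means of the G2 and M genes ran from 8.32 to 9.34 in WT and from 8.61 to 9.40 in Id3KO cells, and those of the S phase genes from 9.57 to 9.95 and from 9.69 to 9.96, so both lists overlapped between the genotypes.

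**Figure D5:**
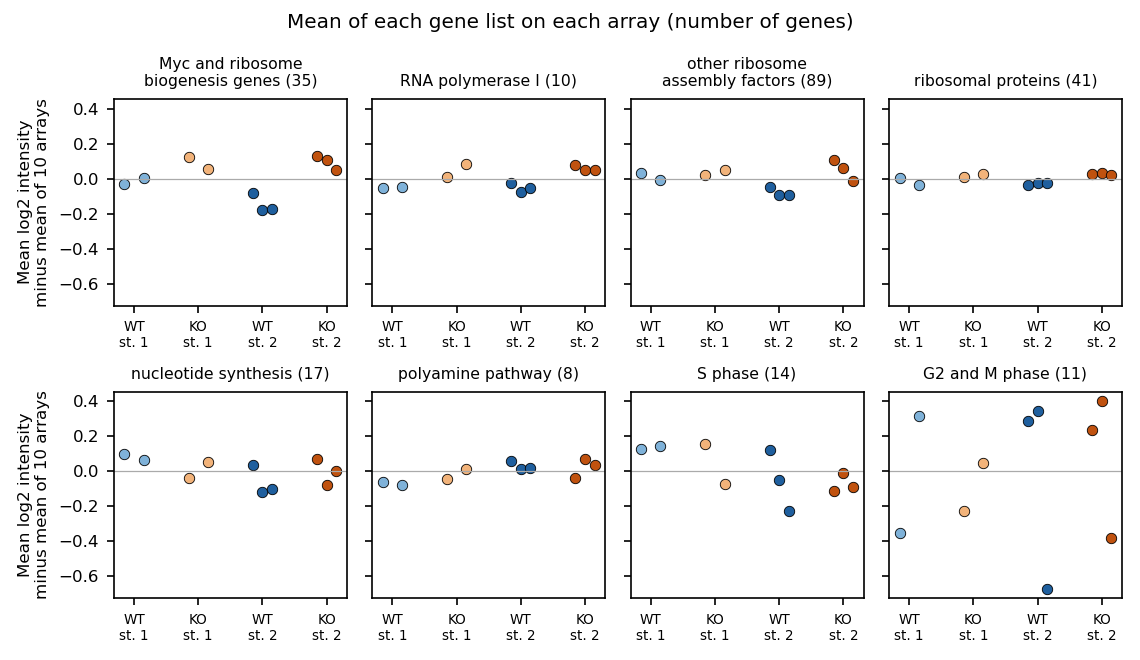
Mean log2 intensity of each gene list on each array, minus its mean over the 10 arrays (vertical axis), by group (WT and KO for Id3KO, st. for stage); points are arrays. The 35 genes, the RNA polymerase I genes and, by a narrow gap (12.132 against 12.136), the ribosomal protein genes show no overlap between genotypes. The other lists overlap. Before centring, the other ribosome assembly factors run from 8.23 to 8.36 in WT and 8.31 to 8.43 in Id3KO cells. The G2 and M phase genes run from 8.32 to 9.34 and from 8.61 to 9.40.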

How the data were processed

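RNA of sorted cells was amplified by a two-cycle protocol and hybridised to 10 single-colour Affymetrix arrays, per the labels' protocols. The deposited table holds linear intensity values that the authors made with RMA, per the submitters' processing notes, which name no version. Values were converted to log2 here. Of 45037 probe sets, 34945 name 1 gene in the platform annotation, 932 several and 9160 none. A probe set was tested when its log2 intensity was above 5.78 (the whole table's median) on 2 or more arrays (25061 kept). One mean per group was fitted to all 10 arrays with limma 3.58.1 (R 4.3.3), without the replicate number, and p-values were two-sided, adjusted by the Benjamini-Hochberg method over all kept probe sets and called under 0.05. The spread was thus shared by the 4 groups, with 6 residual degrees of freedom. The fit was tested on simulated data. Of planted log2 changes of 0.5 it recovered 8% at stage 1, 20% at stage 2 and 44% in the average over stages. Of planted changes of 1 it recovered 86%, 98% and 100%. A gene that was not called may thus still differ by 0.5 or less.

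The 35 genes, the other gene lists and the markers were chosen with earlier results of these data known. Full values are given for Myc and each of the 35 genes called in any comparison, single values for the rest, and from the other lists at most 4 called genes of largest change. Promoter windows are shown for genes called in a genotype comparison with the smallest p-values, where RefSeq (GRCm38.p6) sequences were given, and 2 were added after the motifs were seen. The number of arrays limits precision. Probe sets of 6 of the genes end in _s_at and of 2 (Rrs1 and Odc1) in _x_at, and can bind transcripts of other genes. Arrays are labelled biological replicates, and the labels do not say which animals they came from, so p-values measure the spread between these samples.

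The labels do not say whether replicate numbers pair the arrays, and correlations between arrays of the same number could not settle it. Alternatives covered the filter, normalization between arrays, variance prior, array weights, the arrays fitted, a replicate block, the probe set per gene and each array left out.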

Additional observations from a re-analysis of the deposited data

Results flagged for a closer look

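Nop16 stood out because its genotype difference had opposite signs at the 2 stages, with all arrays on opposite sides. The difference between the stages was 0.63 ± 0.16 on the log2 scale (SE, unadjusted p = 0.00436 and adjusted p = 0.553 in limma over all 10 arrays). The same 0.63 separates the stage change in WT cells (-0.35) from that in Id3KO cells (0.28), since both are 1 contrast of the 4 group means. It failed the correction for 25061 probe sets, and a dimmer probe set of Nop16 gave 0.08 (limma adjusted p = 0.971).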

How the results depend on the processing

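Each result was recomputed with 1 choice changed at a time. The 0 calls at stage 1, between stages and in the interaction stayed 0 in every alternative run, and the Id3 difference kept its direction and call in each. The 6 genes called at stage 2 became 1 with only the 6 stage 2 arrays fitted, 10 with all probe sets of a gene averaged, and between 0 and 5 with 1 array left out. The 5 genes called in the average over stages became 8 with 1 probe set per gene, chosen after seeing the data, and between 1 and 5 with 1 array left out. The labels do not say whether replicate numbers pair the arrays. Same-number correlations ran from -0.311 to 0.133, the latter between the replicate 3 arrays at stage 2. Of 6 stage 2 arrays, 2 correlated best with their own number. With only 2 or 3 arrays in a group, such correlations cannot exclude pairing. With the replicate number as a block the counts were 3 at stage 2 and 2 in the average; with the Id3KO stage 1 numbers crossed, added after seeing the data, they were 3 and 4. The stage difference of Myc in Id3KO cells, -0.051, turned to 0.00037 without replicate 1 of Id3KO stage 1 and ranged from -0.21 to 0.18 with 1 array left out, the latter without replicate 2 of Id3KO stage 2. Its interaction of 0.14 turned to -0.016 without replicate 3 of Id3KO stage 2 and ranged up to 0.38. Why these values moved was not tested. Of the other single-gene values under an alternative, 247 kept direction and stayed called or uncalled as before, 98 kept direction and lost the call, and 2 gained one. The 247 include values of Myc, which had no call to lose, so the 98 lost calls all fell on the called genes.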
